A study of Mus musculus with 120 samples.

Results

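Muscle genes coding for proteins of the sarcomere's load-sensing sites were followed across mouse strains, training and tissues. They are Ankrd1, Ankrd2 and Ankrd23, the muscle ankyrin repeat proteins, Csrp3, the muscle LIM protein, and Xirp1 and Xirp2, the Xin actin-binding repeat proteins. The 6 rows with these symbols were taken from the 53656 genes of the count tables. Ankrd1 was among them because its level was already known to differ between ANT1 soleus and ANT1 heart, so its ANT1 changes and its tissue differences are described here without a test, and counts of calls in those comparisons cover the 5 other members.

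As background, the muscle ankyrin repeat proteins bind the elastic N2A segment of titin, the giant spring-like protein of the sarcomere, and can also be found in the nucleus. Ankrd1 is best known from the heart, where it rises under load, and Ankrd2 from slow skeletal fibres, where it rises on stretch; Ankrd23 is made in both kinds of muscle. Csrp3 sits at the Z-disc, the anchor of titin and actin, and is needed for the normal structure of heart muscle. Xirp1 and Xirp2 bind and stabilise actin filaments at the intercalated discs of the heart and at the myotendinous junctions of skeletal muscle, and Xirp1 is a known marker of damaged or regenerating fibres.

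The groups came from mice of 4 mutant strains, all of them C57BL/6Eij (Nnt+/+). ND5 mice carried m.12352C>T (S204F) in a subunit of respiratory complex I, ND6 mice m.13997G>A (P25L) in another complex I subunit, and CO1 mice m.6589T>C (V421A) in a subunit of cytochrome c oxidase, all 3 on the mitochondrial DNA (mtDNA). ANT1 mice were Slc25a4-/-, a knockout of the nuclear gene for the adenine nucleotide translocator of heart and muscle, with no tissue restriction named. From 16 weeks of age, mice were either handled only (resting) or trained by runs of 45 min, set to 50% of maximal capacity, on every 2nd day over 8 weeks (trained), and tissue was taken 6 days after the last session. Soleus, a slow postural muscle of the calf, and heart were sequenced, with 6 libraries in each of 16 groups, 96 in all. The unmutated B6 strain was not analysed here, so ANT1 was set against the mean of the 3 mtDNA mutants (18 libraries per tissue and treatment), and neither side is a normal control.

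Totals were 10.21 to 20.75 M expected counts per soleus library and 19.65 to 26.51 M per heart library. Slc25a4 (mm10, chr8:46206797-46211284) matched the labels in every library: in soleus it was at 4.965 to 22.07 CPM (counts scaled to the library's total) in the 12 ANT1 libraries and 2170 to 4021 in the 36 others, and in heart at 1.893 to 6.125 against 470.7 to 3892. Transcripts of the mtDNA took a median of 37.42% of counts in resting ANT1 soleus and 18.82% in the resting mtDNA mutants, with no overlap. All CPM given here are scaled by TMM, edgeR's normalization, under which the median log2 change of all genes in that contrast was -0.04. The heart library of mouse B80 (resting ND5 by its label) stood apart, with a heart muscle marker sum of 4629 CPM, 1044 CPM of adipocyte markers and 116100 CPM of red cell markers. The mouse code B80 is labelled trained in soleus and resting in heart, so that these labels exclude each other; without both B80 libraries the only member call to change was that of trained Xirp2 in the tissue difference below. Resting soleus libraries held 19370 to 37180 CPM of slow fibre markers, 18540 to 30650 of fast fibre markers and 35.24 to 375.1 of heart muscle markers. In bulk tissue, fewer cells of a type and less RNA per cell cannot be told apart.

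The members are spread over 5 chromosomes (mm10, GENCODE vM21). Ankrd1 (chr19:36111961-36120099, minus strand) and Ankrd2 (chr19:42036000-42045110, plus strand) share chromosome 19. Ankrd23 lies on chr1:36530188-36536883 (minus strand), Csrp3 on chr7:48830398-48848033 (minus), Xirp1 on chr9:120013755-120023598 (minus) and Xirp2 on chr2:67446002-67526614 (plus). Annotated genes overlap 3 of the spans: Gm42417 that of Ankrd23 and Cx3cr1 that of Xirp1, each on the same strand, and Gm13601 that of Xirp2 on the other strand; the labels do not say whether counting used strand.

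Promoter sequences of 5 members were in the RefSeq table (build GRCm38.p6, 250 bases before to 50 bases after the start of transcription), and 4 are shown because they belong to the members that were lower in ANT1 soleus at rest (Ankrd1, Csrp3, Xirp2) and to Ankrd2, which like Ankrd23 did not pass the test there. Capitals mark GGAATG (the core of the TEAD element, to which the partners of Yap and Taz bind) in Ankrd1, TATAAA in Ankrd2 and the MEF2 element in Xirp2, each searched on both strands.
Ankrd1, chr19:36119795-36120094, minus strand: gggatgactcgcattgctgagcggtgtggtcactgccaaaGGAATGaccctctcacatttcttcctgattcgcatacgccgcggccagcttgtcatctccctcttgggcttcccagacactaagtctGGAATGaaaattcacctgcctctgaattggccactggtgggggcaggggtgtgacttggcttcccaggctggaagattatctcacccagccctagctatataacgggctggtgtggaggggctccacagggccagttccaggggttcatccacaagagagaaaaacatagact
Ankrd2, chr19:42035777-42036076, plus strand: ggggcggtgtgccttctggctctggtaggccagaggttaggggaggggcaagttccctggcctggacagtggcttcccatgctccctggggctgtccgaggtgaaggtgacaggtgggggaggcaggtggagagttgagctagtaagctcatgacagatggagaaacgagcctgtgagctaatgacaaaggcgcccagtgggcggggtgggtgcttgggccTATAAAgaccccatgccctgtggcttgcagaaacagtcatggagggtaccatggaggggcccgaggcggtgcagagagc
Csrp3, chr7:48848002-48848301, minus strand: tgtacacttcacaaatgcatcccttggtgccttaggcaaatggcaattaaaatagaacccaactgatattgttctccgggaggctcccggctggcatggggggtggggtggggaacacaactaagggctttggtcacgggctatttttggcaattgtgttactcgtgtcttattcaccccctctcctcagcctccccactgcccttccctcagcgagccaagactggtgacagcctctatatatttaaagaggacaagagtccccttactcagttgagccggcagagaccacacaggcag
Xirp2, chr2:67445752-67446051, plus strand: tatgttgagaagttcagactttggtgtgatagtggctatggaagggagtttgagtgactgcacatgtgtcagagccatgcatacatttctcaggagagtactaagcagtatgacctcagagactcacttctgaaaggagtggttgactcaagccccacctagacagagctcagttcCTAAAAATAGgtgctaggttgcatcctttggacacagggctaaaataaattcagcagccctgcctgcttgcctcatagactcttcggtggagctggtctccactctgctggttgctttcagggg
GGAATG began at -210 and -123 from the start in Ankrd1, and 14.7% of the 32851 mouse promoters in the table hold it. It was also found, on the other strand, in both Ankrd23 promoters of the table (from 37 and from -120), and Ankrd23 was not called in ANT1 soleus. TATAAA began at -29 in Ankrd2 (13.6% of promoters), and the MEF2 element at -74 in Xirp2 (3.19%). The Csrp3 promoter shown held 5 E-boxes (CANNTG, the element of the myogenic factors), which are not capitalised since 72.3% of promoters hold at least 1. Another Csrp3 promoter of the table, not shown, held 4. No promoter of the 5 members searched held a CArG box, the element of serum response factor, which 1.63% of promoters hold. These matches describe letters and show no binding.

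The members divided between the tissues. On the deposited FPKM scale, which is per transcript length and so allows genes to be compared, the highest medians over the 48 soleus libraries were those of Ankrd23 (918.5), Ankrd2 (831.6) and Csrp3 (669.4), followed by Xirp2 (218.1), Xirp1 (71.8) and Ankrd1 (22.79). In heart the order was Csrp3 (1102), Ankrd1 (830.6), Ankrd23 (124.2), Xirp2 (35.64), Xirp1 (34.88) and Ankrd2 (0.245). The ranges over libraries of all neighbours in these orders overlapped, except those of Xirp1 and Ankrd2 in heart. Between the tissues all 5 members other than Ankrd1 passed the test of edgeR (quasi-likelihood, Benjamini-Hochberg adjusted p under 0.05, used throughout), as did 86.8% of the 16172 genes tested. The log2 difference of Ankrd1, soleus less heart, was -4.39 ± 0.22 (SE), 21-fold. Ankrd2, at 0 to 1.418 CPM in heart, was higher in soleus, and with so low a heart level the fitted log2 difference depended on the setting, at 11.71 in edgeR, 9.33 with limma on log2(FPKM + 1) and 12.29 with limma voom. Ankrd23 (2.79 ± 0.19), Xirp2 (2.60 ± 0.10) and Xirp1 (0.96 ± 0.15) were higher in soleus, and Csrp3 was lower by the least (-0.35 ± 0.11). The labels do not say whether the tissues were prepared together, so tissue and preparation cannot be told apart in these levels.

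**Figure D1:**
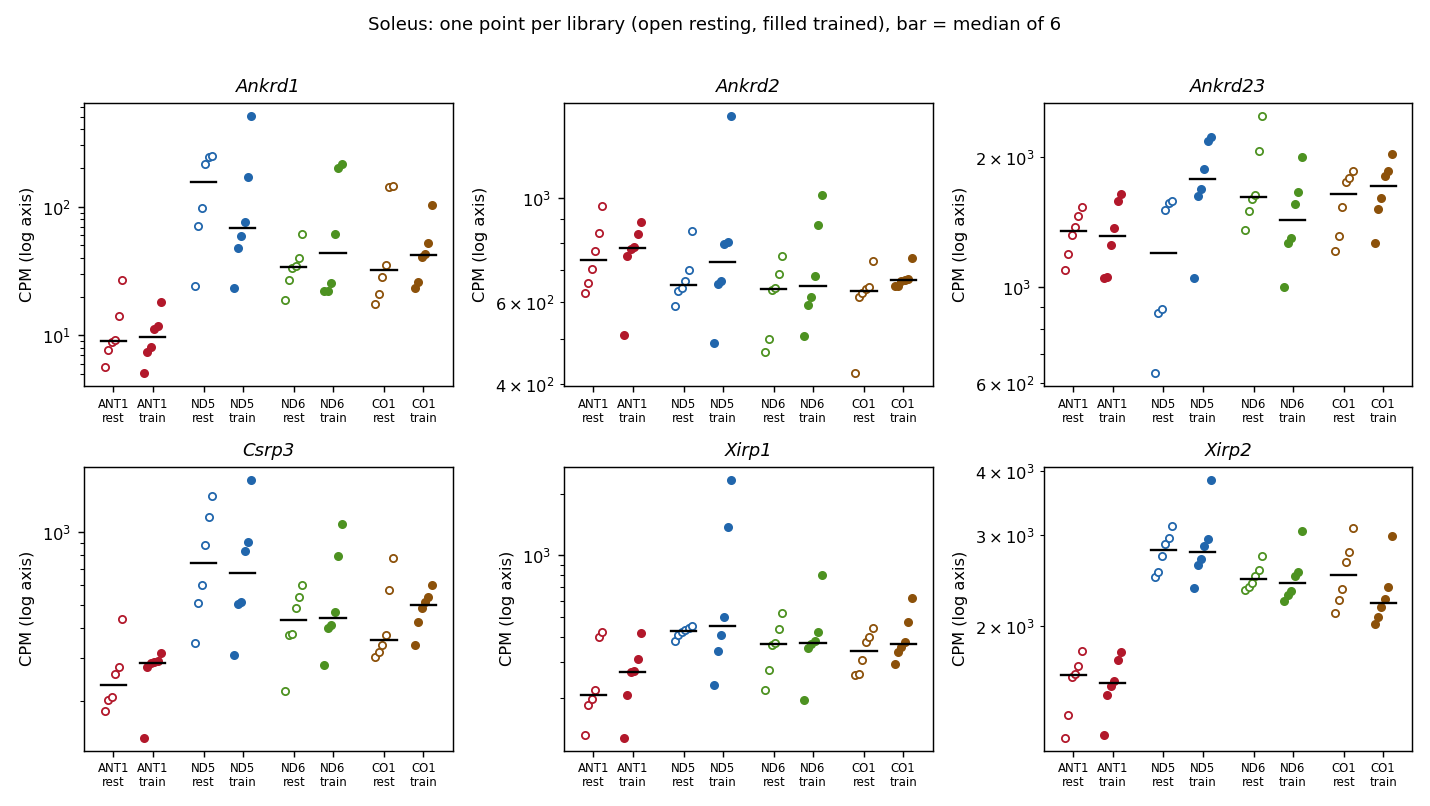
Levels of the 6 members in soleus, as TMM-scaled CPM on a log axis, with 1 point per library (open at rest, filled trained), 6 libraries per strain and treatment, and a bar at each median. The ANT1 libraries of Xirp2 lie below all others in both arms, at 1214 to 1791 CPM at rest, and those of Ankrd1 lie at 5.051 to 26.78 CPM.

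In soleus, Ankrd1 was the member with the widest gap between ANT1 and the mtDNA mutants. At rest its lowest, median and highest values were 5.703, 9.027 and 26.78 CPM in ANT1 and 17.61, 37.81 and 246.7 CPM in the 18 mtDNA mutant libraries. Of the 6 ANT1 libraries, 5 lay below all 18 others and 1 overlapped them. The log2 change was -2.55 ± 0.62, 5.86-fold lower, and carries no test because the ANT1 pattern had a part in the choice of the gene. In the trained arm, which consists of other mice, Ankrd1 ran from 5.051 over 9.633 to 18.28 CPM in ANT1 and from 22.06 over 49.98 to 512.8 CPM in the mtDNA mutants, without overlap. The log2 change there was -3.07 ± 0.63, again given without a test.

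Ankrd1 also had strain medians far apart among the mtDNA mutants. At rest its soleus medians were 156.7 CPM in ND5 (24.3 to 246.7), 34.06 in ND6 (18.8 to 61.4) and 32.03 in CO1 (17.61 to 144.1); trained, they were 68.18, 43.71 and 41.86 CPM. The ranges of the 3 strains overlapped in each arm.

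The other ankyrin repeat genes showed no such gap. Ankrd2 had resting soleus values of 627.2, 736.4 and 961.3 CPM in ANT1 (lowest, median, highest) and 421.4, 638.8 and 847.1 CPM in the mtDNA mutants, which overlapped. Its change was 0.26 ± 0.14 (adjusted p = 0.117) at rest and 0.05 ± 0.14 (0.804) trained, and its sign depended on scaling, since with unscaled totals it was -0.39 and -0.51 and passed the test. Ankrd23 ran from 1097 over 1344 to 1527 CPM in resting ANT1 and from 631.8 over 1550 to 2490 CPM in the mtDNA mutants, again overlapping. Its change was -0.16 ± 0.15 (0.401) at rest and -0.30 ± 0.15 (0.112) trained.

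Csrp3 was lower in ANT1 soleus in both arms. At rest it ran from 181.4 over 233.4 to 434.6 CPM in ANT1 and from 219.1 over 495.6 to 1408 CPM in the mtDNA mutants, with 3 of 6 ANT1 libraries below all others. The log2 change was -1.06 ± 0.28 (adjusted p = 0.0021). Trained, it ran from 141.1 over 287.1 to 314.2 CPM against 282.2, 508.7 and 1637 CPM, a change of -1.17 ± 0.29 (0.00084).

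Of the Xin genes, Xirp2 was lower in ANT1 soleus with no overlap in either arm. How many of all genes were likewise without overlap was not counted, for Xirp2 or for trained Ankrd1. Of all genes 47.7% were called at rest and 43.5% trained. At rest it had 1214, 1605 and 1791 CPM in ANT1 and 2121, 2559 and 3131 CPM in the mtDNA mutants, and trained 1228, 1549 and 1782 against 2021, 2445 and 3846 CPM. The change was -0.76 ± 0.09 (adjusted p = 2.4e-09) at rest and -0.72 ± 0.09 (1.0e-08) trained, the smallest relative error among the members. Xirp1 ran from 132.4 over 208.2 to 421.1 CPM in resting ANT1 and from 218.5 over 389.5 to 519.3 CPM in the mtDNA mutants, with 3 of 6 below all others, and its change of -0.53 ± 0.30 did not pass the test (0.146). In the trained arm Xirp1 was lower by -0.98 ± 0.31 (0.0088), at 128.1, 269.8 and 417.3 CPM against 195.8, 378.6 and 2339 CPM. Whether the resting and trained changes of Xirp1 differ was not tested directly. The joint test of a training effect that differs among the 4 strains gave an adjusted p of 0.861 (edgeR).

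Of the 5 members other than Ankrd1, 2 were lower in resting ANT1 soleus and none higher, against 25.4% lower (47.7% in either direction) among all 13935 genes tested. In the trained arm 3 of 5 were lower, against a background of 22.4% (43.5% in either direction). The median log2 change of the 5 was -0.53 at rest and -0.72 trained, that of all genes -0.04 and -0.02. With ND6 or CO1 alone as the reference, 1 of the 5, Xirp2, was called at rest, and Csrp3 was at -0.73 (adjusted p = 0.083) and -0.79 (0.057). Ankrd1 was at -1.57 ± 0.67 against ND6 alone. Trained, Xirp1 was not called against ND6 alone (-0.65, 0.163) or CO1 alone (-0.61, 0.197).

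**Figure D2:**
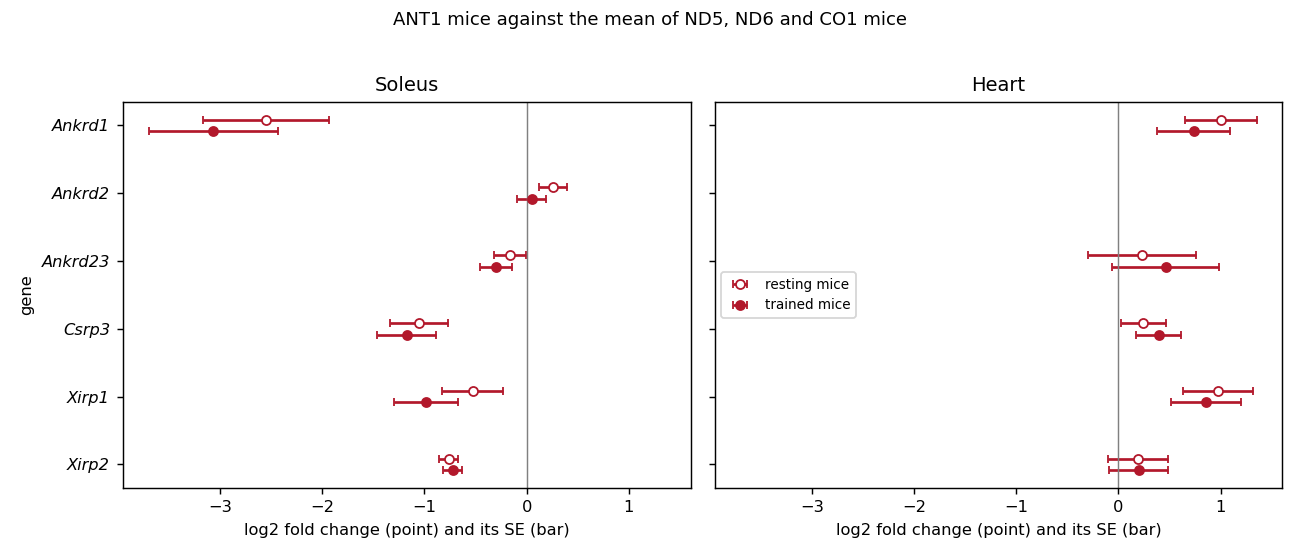
Log2 change of each member between ANT1 and the mean of the 3 mtDNA mutants (x axis), at rest (open) and trained (filled), in soleus and heart, with bars of 1 standard error; Ankrd2 is not drawn in heart. In soleus all members but Ankrd2 lie left of 0 in both arms. In heart all drawn members lie right of it in both arms, and none of those tested was called.

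Markers of other cells moved with the strains in soleus. The regenerating fibre list (embryonic and neonatal myosins, myogenic factors, fetal acetylcholine receptor) had 4 of 6 genes lower in ANT1 in each arm, with none higher at rest and 1 higher trained. Its summed level ran from 73.22 over 86.41 to 122.5 CPM in resting ANT1 and from 84.67 over 152.3 to 2315 CPM in the mtDNA mutants. Tendon markers were lower for 6 of 6 genes at rest (sums of 34.14 to 74.28 against 58.15 to 541.1 CPM), fibroblast markers for 3 of 4 and macrophage markers for 3 of 5, while red cell markers were higher for 5 of 5. In the trained arm 3 of 6, 3 of 4 and 5 of 5 were lower in the same order, and 4 of 5 red cell markers were higher. Of the atrium list 3 of 6 genes were tested in soleus, and all 3 were lower in ANT1 in both arms, with sums that did not overlap (10.08 to 20.94 against 50.12 to 631 CPM at rest, 11.69 to 16.57 against 43.28 to 504.8 trained). Of the slow fibre list 5 of 7 genes were lower and 1 higher at rest (1 and 2 trained), and of the fast fibre list 4 of 8 lower and 2 higher (5 and 0 trained). Of the 3 tested heart muscle genes 2 were lower at rest, and 1 was lower and 1 higher trained. Among all genes 25.4% were lower and 22.4% higher at rest, and 22.4% lower and 21.1% higher trained. Summed slow and fast fibre markers overlapped between ANT1 and the mtDNA mutants in both arms.

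Across the 48 soleus libraries, with group means subtracted, the regenerating fibre sum went with 3 of the members. Pearson's r with Ankrd1 was 0.73 (Spearman's rho 0.73; r 0.67 without the 2 farthest libraries; permutation adjusted p = 3.67e-05 over 11 relations), where a raw p of 1e-05 is the smallest the permutations can give. For Csrp3 r was 0.57 (rho 0.55; 0.51 without the 2; permutation adjusted p = 0.000935), and for Ankrd23 it was negative, -0.81 (rho -0.80; -0.80; 3.67e-05). For Ankrd2, Xirp1 and Xirp2 r was 0.05, 0.08 and 0.13 (rho 0.03, 0.14 and 0.10; permutation adjusted p = 0.782, 0.661 and 0.485). The mouse with the highest regenerating sum (B85, resting ND5, 2315 CPM) had the lowest Ankrd23 of all soleus libraries, 631.8 CPM.

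With the score of that list as a covariate in the fit, an alternative chosen after seeing the data, the ANT1 changes of Ankrd1 and Csrp3 became smaller, that of Ankrd23 became larger and that of Xirp2 hardly moved. At rest Ankrd1 was at -1.02 ± 0.53 and Csrp3, no longer called, at -0.41 ± 0.27 (adjusted p = 0.239), while Xirp2 was at -0.74 (1.0e-07) and Ankrd23 at -0.57 ± 0.11 (6.8e-05) was now called lower. Trained, Ankrd1 was at -1.83 ± 0.52, Csrp3 at -0.64 (adjusted p = 0.051), Xirp1 at -0.93 (0.028), Xirp2 at -0.70 (2.5e-07) and Ankrd23 at -0.69 ± 0.11 (2.9e-06). The part that the amount of regenerating fibres, or the other cell types, has in the differences was not tested beyond this.

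Among the mtDNA strains, ND5 and ND6 differed at rest in soleus in 2 of 6 members, 1 higher and 1 lower, against backgrounds of 9.97% and 4.51%. Ankrd1 was higher in ND5 by 2.07 ± 0.64 (adjusted p = 0.024), and Ankrd23 was lower by -0.59 ± 0.19 (0.028), at 631.8, 1198 and 1580 CPM in ND5 against 1351, 1614 and 2490 CPM in ND6, ranges that overlapped. Csrp3 was at 0.91 ± 0.33 (0.052). With the regenerating fibre score as a covariate neither gene was called (Ankrd1 0.11, Ankrd23 -0.04), nor with the fast fibre score (1.65 and -0.55), and leaving out any of 5 libraries (I95 or I18 of ND6, B70, B19 or B85 of ND5) also left 0 calls, while 1 remained without I62 and 3 were made without I85, B3, B10 or B47. In the other 11 strain pairs of the 2 tissues and arms edgeR called no member, against backgrounds of 11.2% for ND5 against CO1 in resting heart, 0.566% for ND6 against CO1 in trained heart and 0% for the others; 0 to 4 members per pair had an unadjusted p under 0.05, the 4 in ND5 against CO1 in trained soleus, where 8.41% of all genes did. Leaving out B10 brought Csrp3 in ND5 against CO1 at rest to 1.02 (0.037).

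**Figure D3:**
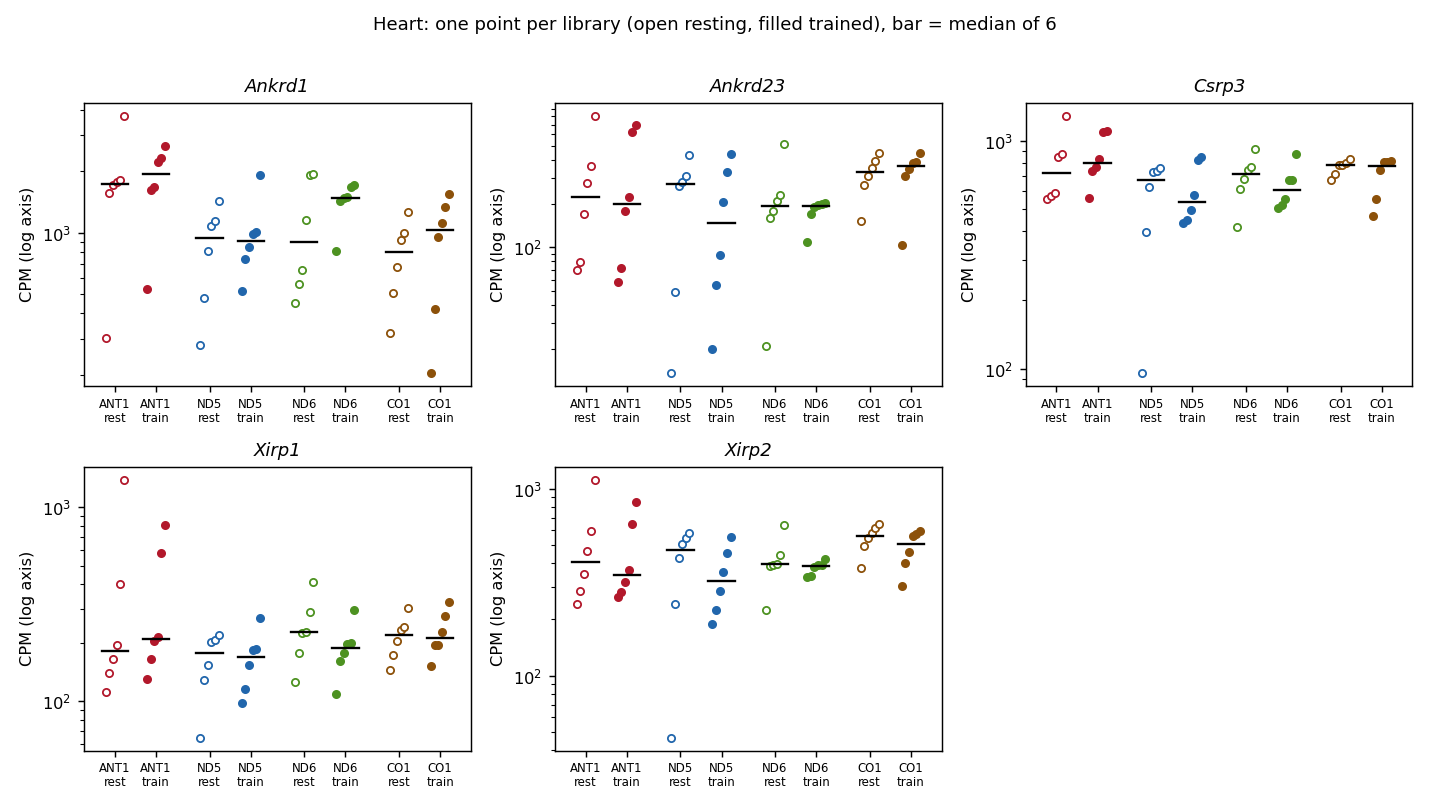
Levels of 5 members in heart, as TMM-scaled CPM on a log axis, with 1 point per library (open at rest, filled trained), 6 per strain and treatment, and a bar at each median. Ankrd2, at 0 to 1.418 CPM, is not drawn, and the lowest resting ND5 point of Ankrd23, Csrp3, Xirp1 and Xirp2 is mouse B80, at 95.42 CPM for Csrp3.

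In heart edgeR and DESeq2 called 0 of the 5 members other than Ankrd1 between ANT1 and the mtDNA mutants in either arm, against 0.916% of 15723 genes called at rest (0.617% higher, 0.299% lower) and 4.78% trained (3.45% higher, 1.32% lower). Ankrd1 ran from 302.3 over 1741 to 3762 CPM in resting ANT1 and from 278.6 over 867 to 1947 CPM in the mtDNA mutants, and from 526.8 over 1945 to 2658 CPM against 202.7, 1063 and 1921 CPM trained. Only 1 and 3 of 6 ANT1 libraries lay above all others, and the changes of 1.001 ± 0.35 and 0.74 ± 0.36, given without a test, had the opposite sign to soleus. Xirp1 was at 0.97 ± 0.34 (adjusted p = 0.194) at rest, a value that rested on 1 library: mouse A72 had 1388 CPM, the other 5 ran from 111.1 to 400.3 CPM, and without A72 the change was -0.01. Ankrd23, Csrp3 and Xirp2 were at 0.23 ± 0.53, 0.24 ± 0.22 and 0.19 ± 0.29 at rest (adjusted p = 0.904, 0.705 and 0.840), and each turned negative with unscaled totals. Mouse A72 was the highest heart library for all 6 members. Of the 5, 2 at rest (Ankrd2 and Xirp1) and 1 trained (Xirp1) had an unadjusted p under 0.05, as did 11.6% and 19.4% of all genes. The heart level of Ankrd2, 0 to 1.418 CPM, is too close to 0 for its change to be read. Of the marker lists, only the regenerating fibre list had a called gene in heart (1 of 2 tested), but the summed atrium markers ran from 27.23 to 36470 CPM over the resting libraries, and with the atrium score as a covariate Xirp1 was called at rest (0.87, adjusted p = 0.046).

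The change in ANT1 differed between the tissues for several members. At rest the soleus change minus the heart change was -3.50 ± 0.68 for Ankrd1 (described, not tested in either arm), -1.25 ± 0.35 for Csrp3 (adjusted p = 0.012), -1.46 ± 0.47 for Xirp1 (0.033) and -0.92 ± 0.31 for Xirp2 (0.044). In the trained arm it was -3.76 ± 0.68 for Ankrd1, -1.53 ± 0.35 for Csrp3 (adjusted p = 0.0021) and -1.80 ± 0.48 for Xirp1 (0.0085), while Xirp2 at -0.88 ± 0.31 (0.060) did not pass. Of the 5 members other than Ankrd1, 3 were lower at rest against a background of 5.58%, and 2 trained against 5.16%. Ankrd2 and Ankrd23 were not called in either arm, and the value of Ankrd2 draws on a heart level too close to 0 to be read. The resting values of Xirp1 and Xirp2 moved most without mouse A72's heart, to -0.50 (0.501) and -0.54 (0.263). Xirp1 also missed the threshold without the soleus of A75, A82, A88 or A18 (0.054 to 0.072). Xirp2 missed it without the soleus of A58, A82, A88, A4, A18, E64 or E7, or the heart of A23, I56, I53, B10 or E42 (0.050 to 0.080). With no filter on low counts or with limma voom neither was called. Without mouse A73's heart the trained Xirp1 value was -1.38 (0.054), and trained Xirp2 passed with DESeq2 (-0.90, 0.041), with unscaled totals (-1.14, 0.00097), without both B80 libraries (-0.91, 0.018), or without the heart of A17, A71, A64 or B9 (0.031 to 0.040).

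**Figure D4:**
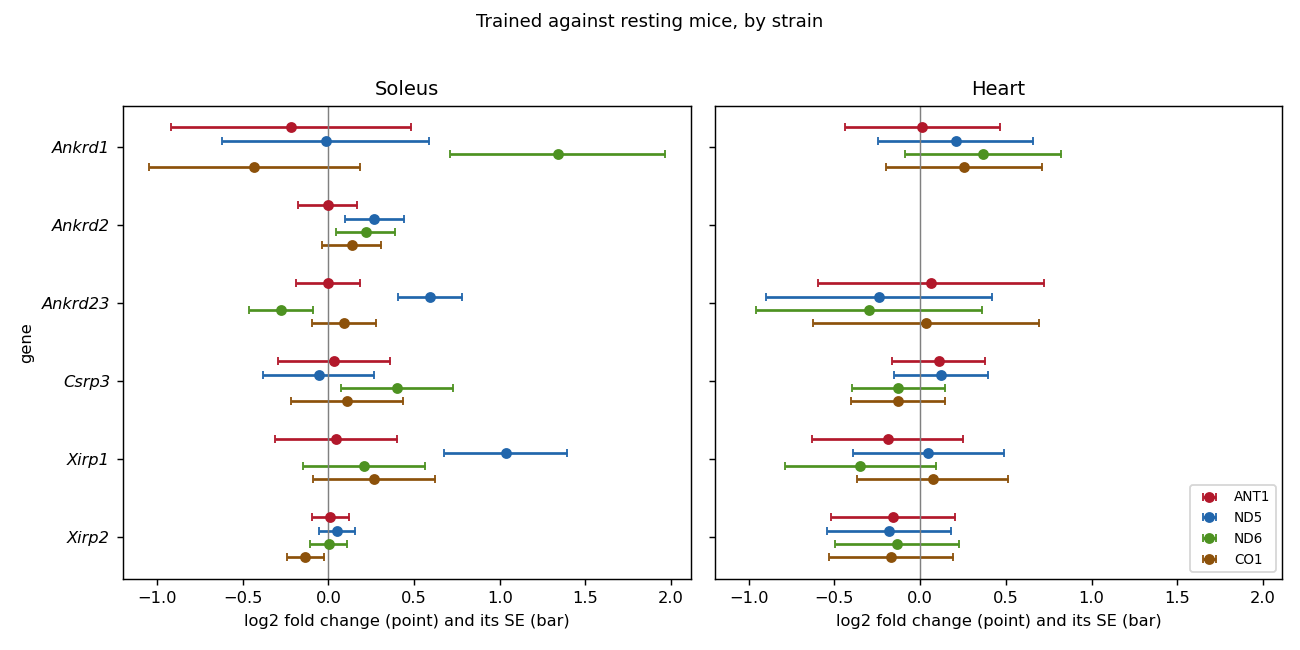
Log2 change of each member between trained and resting mice (x axis) in each of 4 strains, in soleus and heart, with bars of 1 standard error; Ankrd2 is not drawn in heart. No value passed the test, and the furthest from 0 in soleus are Ankrd1 in ND6 (1.34) and Xirp1 in ND5 (1.04).

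For training, edgeR called 0 of 6 members and 0 of all genes tested in any strain or tissue, and DESeq2 called 0 members for the average over strains in either tissue. In soleus averaged over strains, Xirp1 had the largest change, 0.39 ± 0.18 (unadjusted p = 0.035, adjusted p = 0.961), the 1 member under 0.05 unadjusted; in heart there was none. At an unadjusted p under 0.05 the averages gave 536 genes in soleus and 538 in heart. Within strains, Xirp1 in ND5 was at 1.04 ± 0.36 (adjusted p = 0.171), from 379.6, 425.8 and 448.7 CPM at rest to 232.6, 452.1 and 2339 CPM trained, so that the trained range spanned the resting one. Ankrd23 in ND5 was at 0.59 ± 0.19 (0.154), from 631.8, 1198 and 1580 to 1050, 1778 and 2218 CPM, and Ankrd1 in ND6 at 1.34 ± 0.63 (0.954), both with overlap. Ankrd23 was also the member whose training effect differed most between strains (unadjusted p = 0.0168, adjusted p = 0.611). Tissue was taken 6 days after the last session, so levels directly after running were not measured.

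Among trained soleus, the labels class 3 mice of each strain as responders to training and 3 as non-responders. edgeR and DESeq2 called 0 members between the classes averaged over strains, and edgeR called 0 of all 13843 genes; 1 member was under 0.05 unadjusted (Ankrd2, 0.24 ± 0.11, adjusted p = 0.954), as were 622 genes (4.49%). In ND5, Xirp1 was at 406.2, 1367 and 2339 CPM in responders and 232.6, 341.8 and 497.9 CPM in non-responders, a change of 1.94 ± 0.47 that did not pass (0.278) and whose ranges overlapped. The change of Xirp1 was 0.78 ± 0.45 in ND6, -0.49 ± 0.45 in ANT1 and -0.52 ± 0.45 in CO1, and none passed the test. The highest responder, mouse B69, was the highest soleus library for 5 of the 6 members, all but Ankrd23.

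The members did not vary as 1 group within soleus, where Ankrd23 stood apart. Over the 48 libraries with group means subtracted, Ankrd1 and Csrp3 went together (r = 0.77, rho = 0.72, r = 0.72 without the 2 farthest libraries, permutation adjusted p = 3.57e-05 over 25 relations), as did Ankrd2 and Csrp3 (0.70, 0.53, 0.60, adjusted p = 6.25e-05). Every pair of members without Ankrd23 had a positive r, of 0.38 to 0.77 (permutation adjusted p of 0.0457 or less). Without the 2 farthest libraries these ran from 0.16 to 0.72. By rank not all passed, with rho 0.25 for Csrp3 and Xirp1 (permutation adjusted p = 0.151). Ankrd23 went the other way from Ankrd1 (-0.49, -0.49, -0.60, adjusted p = 0.00677) and Csrp3 (-0.44, -0.46, -0.37, adjusted p = 0.0183). With Ankrd2, Xirp1 and Xirp2 its r was 0.03, 0.06 and 0.09. In heart Csrp3 and Xirp2 (r = 0.93, rho = 0.88) and Ankrd23 and Xirp2 (0.91, 0.94) were closest (0.88 and 0.92 without the 2 farthest libraries, permutation adjusted p = 3.57e-05 for each), while Ankrd1 had r of 0.12 to 0.36 with the others. Across heart libraries the summed atrium markers went against Ankrd23 (r = -0.72, rho = -0.73, r = -0.70 without the 2 farthest libraries, permutation adjusted p = 3.67e-05), Xirp2 (-0.56, -0.67, -0.52, adjusted p = 0.00119), Xirp1 (-0.53, -0.59, -0.52, 0.00148) and Csrp3 (-0.51, -0.65, -0.46, 0.00132). For Ankrd1 r was 0.21 (rho 0.19, permutation adjusted p = 0.276). The share of atrium in the pieces of heart was not measured.

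**Figure D5:**
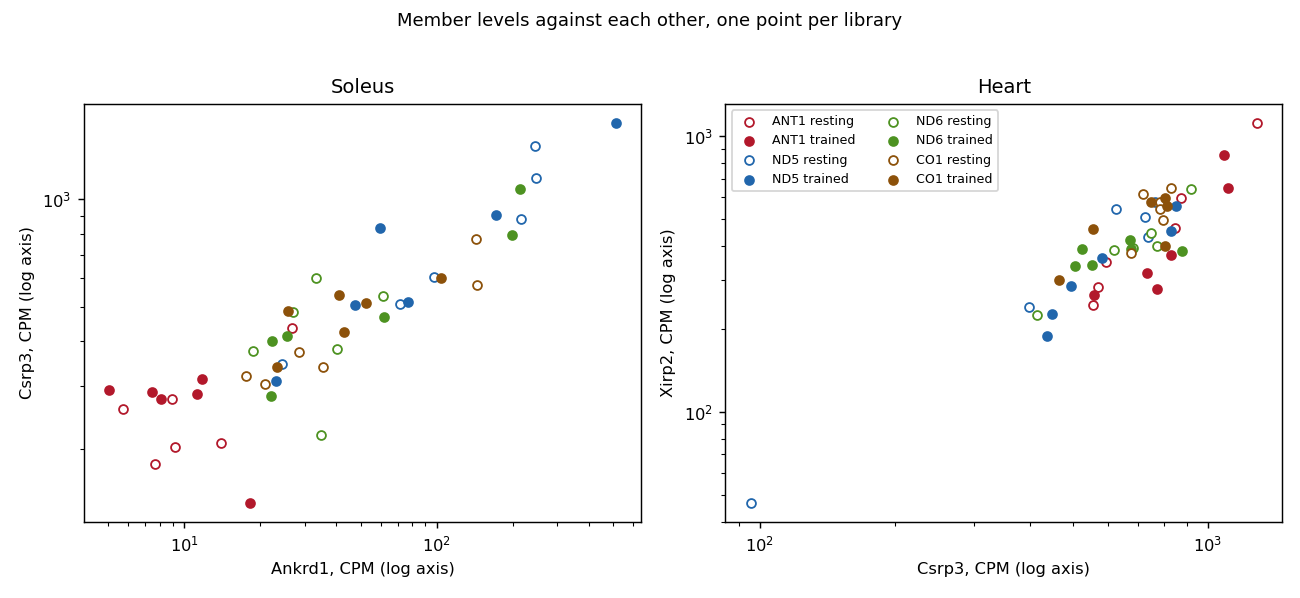
Csrp3 against Ankrd1 in soleus and Xirp2 against Csrp3 in heart, as CPM on log axes, with 1 point per library, coloured by strain, open at rest and filled trained. Both pairs go together across libraries, with r of 0.77 and 0.93 after subtraction of group means, and the heart library of B80 lies apart at 95.42 CPM of Csrp3 and 46.66 CPM of Xirp2.

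The genes most like each member, by Pearson's r over 48 libraries after the same subtraction, differed between members. For soleus they were Ckap4 (0.89), Cd44 (0.89) and Itgb1 (0.88) for Ankrd1, Hspb7 (0.80), Cryab (0.78) and Lmcd1 (0.72) for Ankrd2, and Uaca (0.86), Upf2 (0.82) and Myl3 (0.81) for Ankrd23. For Csrp3 they were Mustn1, Hspb1 and Pdlim3 (0.84, 0.84 and 0.83), for Xirp1 the stress-induced heat shock genes Hspa1b and Hspa1a with Tnfrsf12a (0.92, 0.90 and 0.90), and for Xirp2 Nudt4, Actr1b and Hspb7 (0.74, 0.73 and 0.73). In heart Ankrd1 was most like Synpo2l (0.84), Abhd16a (0.78) and Nppb (0.78), the latter the gene of B-type natriuretic peptide; Xirp1 was most like Abra (0.95), Rcan1 (0.94) and Uck2 (0.91), Ankrd23 like Abcb4, Myot and Hspb7 (0.96, 0.96 and 0.94), Csrp3 like Myoz2, Pacsin3 and Tnnc1 (0.96, 0.95 and 0.95), and Xirp2 like Adprhl1, Nrap and Slain2 (0.96, 0.96 and 0.95).

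Other genes of the same pathways were counted from lists chosen with earlier results of these data known. In resting ANT1 soleus, 14 of 25 titin and Z-disc partners were lower and 1 higher, among them Synpo2 (-0.62), Synpo2l (-0.95) and Pdlim5 (-0.48), Z-disc proteins that bind actin or actinin. Of 14 LIM and ankyrin relatives 8 were lower and none higher, with Fhl1 (-0.75), a LIM-only protein of the sarcomere, Pdlim1 (-0.47) and Ankrd6 (-0.57). Of 16 Yap/Taz-Tead genes, a group to which Ankrd1 itself is often assigned, 7 were lower and none higher, led by Cyr61 (-1.74), Amotl1 (-0.63) and Ctgf (-1.49), matricellular and junctional genes of that pathway. Load markers had 7 lower and 2 higher of 12 tested, with Rcan1 (-1.59), a calcineurin target, and Gdf15 (1.94), a secreted stress factor; chaperones had 4 lower and 5 higher of 16, with Hspb7 (-0.68), Stub1 (0.36) and Trim54 (0.40). The medians of these lists in that contrast were -0.23, -0.29, -0.23, -0.20 and 0.06, that of all genes -0.04. In the trained arm 11 of 25, 6 of 14, 4 of 16, 5 of 12 and 3 of 16 were lower in the same order. Among all genes 25.4% were lower at rest and 22.4% trained, so that the chaperones at rest, and the Yap/Taz-Tead genes and chaperones trained, lay near or below that share. In resting heart only Gdf15 (2.34, adjusted p = 0.017) and Dnajb6 (0.42, 0.018), a chaperone of the Z-disc, passed the test among the 5 lists.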

How the data were processed

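RNA was enriched with oligo(dT) and sequenced as paired-end NEBNext Ultra II libraries, per the labels' protocols. The authors aligned and counted reads with STAR 2.5.2b and RSEM 1.2.28 on mm10, per the submitters' processing notes, and deposited expected counts and FPKM per gene; RSEM settings and strand use are not stated by the labels. The 6 members, and every gene list, were chosen with earlier results of these data known. Samples were grouped by strain, treatment and tissue from the labels. The 24 count columns whose names match no sample title were left out, so 96 libraries and 16 groups were used.

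Expected counts were rounded and, per tissue, tested with edgeR 4.0.16 (filterByExpr by group, TMM, quasi-likelihood F test, Benjamini-Hochberg over all 13935 soleus or 15723 heart genes; 16172 where both tissues entered 1 fit, 13843 for response classes), in R 4.3.3. A standard error is the log2 change divided by the root of F. All groups of a tissue shared 1 estimate of the spread. Correlations used log2 CPM (prior count 2) less group means, with 100000 permutations within groups, two-sided. Levels of different genes were compared on the deposited FPKM, which are per length. Named genes besides the members and Slc25a4 are, for each member, the 3 most alike in a tissue (average log2 CPM of at least 1, no predicted genes), and for each list the 3 with the smallest p in the resting ANT1 contrast.

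Alternatives were DESeq2 1.42.0, RLE factors, unscaled totals, TMM without mtDNA genes, no filter, limma 3.58.1 on log2(FPKM + 1), limma voom with the mouse code as a block, cell marker scores as covariates, single reference strains, and left-out libraries. The labels do not say whether mice of a group shared a litter or cage. No 2 libraries of a group were identical (120 pairs per tissue, smallest chi-square per gene 6.31). Of 19 mouse codes found in both tissues, 1 had conflicting labels, and the deviations of a mouse's 2 tissues from their group means correlated by -0.30 to 0.33 (median 0.05).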

Additional observations from a re-analysis of the deposited data

Results flagged for a closer look

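In 12 of the 88 groups of 6 libraries and members examined, 1 library lay far from the other 5 by Dixon's criterion, which flags about 1 group in 20 by chance. In heart, Ankrd1 was low in mouse A58 (resting ANT1, 302.3 CPM, the others 1556 to 3762), in A64 (trained ANT1, 526.8, the others 1621 to 2658) and in I63 (trained ND6, 808.7, the others 1425 to 1706). Ankrd23 was low in the hearts of I53 (resting ND6, 21.07 CPM), I57 (trained ND6, 108.8) and E50 (trained CO1, 103.1). The heart of mouse B80, the resting ND5 library with few heart muscle transcripts, was low for Csrp3 (95.42 CPM, the others 398.1 to 761.1) and Xirp2 (46.66, the others 240.7 to 578.1). In soleus, mouse A13 (trained ANT1) was low for Ankrd2 (508.8 CPM, the others 752.5 to 889.2) and Csrp3 (141.1, the others 275.7 to 314.2). Ankrd2 was also low in the soleus of E42 (resting CO1, 421.4 CPM) and high in that of E56 (trained CO1, 745).

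The ANT1 change differed between soleus and heart, by the test of the difference itself in edgeR, for Csrp3 (log2 difference of -1.253 resting and -1.525 trained) and Xirp1 (-1.458 and -1.796) in both arms, and for Xirp2 at rest (-0.9156). The resting calls of Xirp1 and Xirp2 were lost without the heart of A72, among other libraries, and the trained call of Xirp1 without the heart of A73. For Ankrd1 the difference was -3.501 at rest and -3.759 trained, given as a description because it had a part in the choice of the gene.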

How the results depend on the processing

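Values below are log2 changes of the member named, or members called. Where ANT1 is compared, only calls of the 5 members other than Ankrd1 are read as tests, and counts that include Ankrd1 are marked. Where no cause is given, the cause was not tested. Xirp2 in ANT1 soleus kept its direction and its call in both arms under every alternative, at -1.41 to -0.70 at rest and -1.27 to -0.58 trained. DESeq2 gave the same counts as edgeR, except that it also called Xirp2 in the trained tissue difference. Leave-one-out refits covered the libraries of the groups in each comparison.

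With unscaled totals the median log2 change of all genes in resting ANT1 soleus moved to -0.69. The mtDNA share of counts was larger in ANT1 soleus. Its part in that move, or in the values on the deposited FPKM, was not tested. In resting ANT1 soleus both called 6 members, a count that includes Ankrd1, whose call is not read as a test. The 5 other members were thus all called in both. ND6 alone as the reference called 1, Xirp2. Ankrd2 there was at -0.39 with unscaled totals, -0.40 on FPKM and -0.12 with the fast fibre score, and trained at -0.51, -0.48 and -0.29, with -0.11 against ND5 alone; Ankrd23 at rest was at 0.050 with the fast fibre score and 0.18 against ND5 alone. ND5 against ND6 at rest had 4 calls with unscaled totals and on FPKM, and 0 with the fast fibre score or the regenerating fibre score, the latter chosen after seeing the data. Leaving out 1 library gave 0 to 3 calls there and 0 to 1 for ND5 against CO1. The atrium score gave 1 call in resting ANT1 heart. For the tissue difference of the ANT1 change, unscaled totals called Ankrd2, Csrp3, Xirp1 and Xirp2 in the trained arm. The call of Ankrd2 draws on heart values too close to 0 to be read. At rest Csrp3 alone was called with no filter, and also without A82, A88 or A18 in soleus, or A72 in heart. Xirp2 at rest missed the threshold without any of 13 libraries and Xirp1 without any of 5, mostly by little, A72 apart; trained Xirp2 passed it without the hearts of A17, A71, A64 or B9.

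Fits with and without the mouse code as a replicate block were made with limma voom for the tissue comparisons, where some mice gave both tissues. For the tissue difference of the ANT1 change, 2 members were called at rest with the block and 2 without it, and trained 3 and 3. These counts include Ankrd1, whose call is not read as a test. Of the other members, Csrp3 was called at rest, and Csrp3 and Xirp1 trained, in both fits. The block thus changed no call, and the correlation within a mouse was 0.04.

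The other reversals are of values not called in either fit. With unscaled totals they were, in resting heart, Ankrd23 (-0.092), Csrp3 (-0.042) and Xirp2 (-0.12) for ANT1, and Ankrd2 (0.042) and Xirp2 (0.088) for ND5 against ND6; Xirp2 for ANT1 trained heart (-0.13); Ankrd2 for ND6 against CO1 soleus (-0.072); Csrp3 for training in heart (0.082) and for the tissue difference of training (-0.00051); and Xirp2 for responders (-0.014). On FPKM they were Ankrd23 (-0.15), Csrp3 (-0.021) and Xirp2 (-0.14) for ANT1 resting heart, Ankrd23 (-0.14) and Xirp2 (-0.18) trained, Ankrd2 for ND6 against CO1 soleus (-0.069; -0.00019 with TMM without mtDNA genes), Ankrd23 (0.030), Csrp3 (0.12) and Xirp1 (0.054) for training in heart, and Xirp2 for responders (-0.025). Against CO1 alone, Ankrd23 was at -0.13 and -0.094 and Xirp2 at -0.092 and -0.081 in resting and trained ANT1 heart.

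With the atrium score, ND5 against CO1 in resting heart turned for Ankrd2 (0.22), Ankrd23 (0.55), Xirp1 (0.22) and Xirp2 (0.019), ND6 against CO1 for Ankrd2 (0.51), Ankrd23 (0.38), Csrp3 (0.17) and Xirp2 (0.093), and training in heart for Ankrd2 (0.090), Ankrd23 (0.19), Csrp3 (0.11) and Xirp1 (0.089). With the fast fibre score, Csrp3 for ND6 against CO1 soleus was at 0.079 (0.19 with the regenerating fibre score), training in soleus for Ankrd1 at -0.091, and responders at -0.50 for Ankrd1, -0.13 for Csrp3 and -0.022 for Xirp2. Without both B80 libraries, ND5 against ND6 in resting heart was at 0.21 for Ankrd2 and 0.16 for Xirp2, and the tissue difference of training for Ankrd1 at 0.043.

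Leaving out 1 library also turned signs. For ND6 against CO1 in resting soleus the range was -0.085 to 0.069 for Ankrd2, -0.17 to 0.18 for Csrp3, -0.035 to 0.20 for Xirp1 and -0.076 to 0.035 for Xirp2. In ANT1 resting heart it was -0.39 to 0.44 for Ankrd23, -0.010 to 1.17 for Xirp1 and -0.20 to 0.34 for Xirp2, and trained -0.078 to 0.31 for Xirp2. In resting heart, ND5 against ND6 ran from -0.42 to 0.21 for Ankrd2, -0.25 to 0.50 for Ankrd23 and -0.23 to 0.16 for Xirp2, ND5 against CO1 from -0.059 to 0.34 for Ankrd1 and ND6 against CO1 from -0.051 to 0.28 for Xirp1. Training ran from -0.076 to 0.27 for Ankrd1 in soleus, and in heart from -0.22 to 0.045 for Ankrd23, -0.068 to 0.043 for Csrp3 and -0.21 to 0.14 for Xirp1. Responders ran from -0.17 to 0.70 for Ankrd1, -0.024 to 0.24 for Csrp3 and -0.029 to 0.060 for Xirp2. The tissue difference at rest ran from -0.57 to 0.26 for Ankrd23, and that of training from -0.28 to 0.067 for Ankrd1. Ankrd2 in heart, at 0 to 1.418 CPM, is too close to 0 at this depth for its changes to be read.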
